A study of Ovis aries with 4 samples.

Results

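The older ovary list described here held 3656 peaks in 3086 genes, out of 8034 peaks in the peak lists of the series. It was taken whole: each peak deposited for ovarian tissue of Cele black sheep aged 5 to 6 years is a member, and no peak was chosen by its value. In a MeRIP-seq experiment, RNA fragments are captured with an antibody against N6-methyladenosine (m6A), sequenced, and set against an input library made from the same RNA without the antibody. The series holds 4 samples of total RNA, an immunoprecipitate and an input at 1 to 2 years and the same pair at 5 to 6 years, and the list used here comes from IP_H against input_H. Whole ovarian tissue was used, so oocytes, follicle cells, stroma and vessels contribute RNA together, and in such bulk tissue fewer cells of a type and less RNA per cell cannot be told apart. With 1 immunoprecipitate and 1 input there is no replicate, and how many animals gave the tissue is not given in the sources used here. No test was therefore made, and each 95% interval covers counting error only.

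m6A is placed on messenger RNA in the nucleus by a methyltransferase complex built on METTL3 and METTL14, can be removed by FTO and ALKBH5, and is bound by YTH-domain proteins that act on decay, translation and splicing of the transcript. It is typically dense around stop codons and in 3' UTRs. In the ovary the mark is known for its part in the storage and clearance of maternal transcripts in oocytes. A gene can lack a listed peak because its transcript is not methylated, because the peak is under the authors' limits, or because the transcript is scarce, and the list does not separate these.

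The fold of each peak over input and its p-values, raw and adjusted, are the authors' own. Peaks were mostly weak by fold. The median was 1.88 (95% interval 1.87 to 1.90), the middle 50% lay between 1.67 and 2.25, and the highest was 8.50. A fold of at least 2 was reached by 1562 peaks (42.7%), and a fold of at least 3 by 238 (6.51%). The lower edge is a limit of the deposited list: 140 peaks (3.83%) stood at exactly 1.5. Among those at this edge were RIC3, NKRF, PRRG3, NIPAL3 and the activin-binding follistatin gene FST, whose adjusted p-values ran from 0.533 for RIC3 to 0.0724 for FST. By p-value the list ended at 0.049. An adjusted p above 0.05 was carried by 120 peaks (3.28%), and the weakest belonged to TRAF1 (0.557), ZC3H13 (0.545), RIC3, CDC5L (0.499) and TAF12 (0.450). The authors' adjusted p did not always follow their raw p. FST had a raw p of 0.0240 and an adjusted p of 0.0724, while NKRF had 0.00813 and 0.102. How the adjustment was made is not given, so ranks and limits by adjusted p can differ from those by raw p.

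Strength differed little between annotation labels. The label 3' UTR covered 2427 peaks (66.4%, 64.8 to 67.9) with a median fold of 1.87. Stop codon covered 561 peaks (15.3%) with a median of 1.94 (1.89 to 1.97), and Exon covered 559 (15.3%) with a median of 1.87. The rare labels at the 5' side were of like strength, with medians of 1.90 in 91 peaks labelled 5' UTR (2.49%) and 1.88 in 18 labelled start codon (0.492%). The upper tail differed more than the middle: a fold of at least 3 was found in 15.4% of the 5' UTR peaks, against 7.31% of stop codon, 6.10% of 3' UTR and 6.08% of Exon peaks, where the background over all peaks is 6.51%. The 5' UTR share rests on 14 peaks. By adjusted p the labels stood further apart, with a median log10 adjusted p of -7.23 for stop codon, -5.23 for 3' UTR and -4.66 for Exon.

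The leading peaks of each label, LOC genes and an adjusted p above 0.05 left out, show which transcripts carried them. Among 5' UTR peaks the highest folds were those of LRRC4C (6.67), which encodes a synaptic adhesion protein, of the sialyltransferase gene ST3GAL1 (4.57, adjusted p 0.0240) and of EEFSEC (4.40), the elongation factor for selenocysteine. Among start codon peaks they were those of the semaphorin co-receptor gene PLXNA1 (3.75), of PGBD1 (2.75) and of the transcription factor gene MEF2C (2.44). Each of these 3 start codon peaks crossed an intron, as did 12 of the 18 with that label (66.7%). The share of peaks crossing an intron was 60.8% for Exon, 37.4% for 5' UTR, 23.9% for stop codon and 12.5% for 3' UTR, so labels near the 3' end held mostly peaks within 1 exon. Over the list 823 peaks (22.5%) crossed an intron, with a median fold of 1.86 against 1.90 for those within 1 exon.

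**Figure D1:**
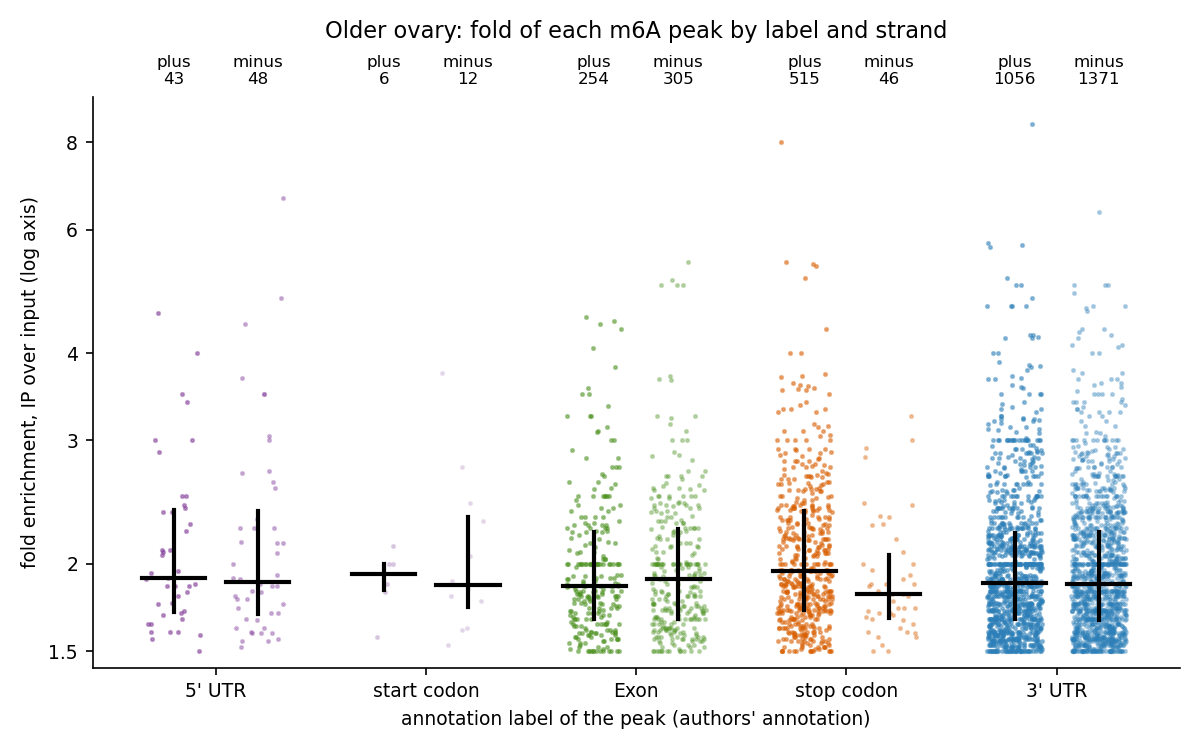
Fold enrichment over input of each of the 3656 peaks (vertical log axis) by annotation label and strand of the gene (horizontal axis, with the number of peaks above); points are peaks, black horizontal bars medians and vertical bars the middle 50%. The 10 medians lie between 1.81 and 1.95, while the number of stop codon peaks falls from 515 on the plus strand to 46 on the minus strand.

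Peak widths were regular. They ran from 138 to 1495 bases of exon with a median of 201, and 84.3% lay within 2 bases of a multiple of 50. The distance along the genome was longer where introns were crossed. The widest spans were those of the zinc finger gene TSHZ2 (192675 bases), the RNA helicase gene DDX10 (101418), the syntaxin gene STX8 (88070), DNAJC1 (86420) and FAF1 (72464), whose folds lay between 1.71 and 2.11. The highest folds among peaks across an intron were those of PSME3IP1 (5.40), C15H11orf49 (5.33) and GSTA1 (5.09). Across the 3656 peaks the Spearman correlation of fold with width was 0.0192, given as a description of peaks from the same libraries.

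Strand shaped the list in its labels and in its significance, but hardly in its folds. Plus-strand genes held 1874 peaks (51.3%, 49.6 to 52.9) with a median fold of 1.90, and minus-strand genes 1782 with a median of 1.87. The stop codon label was given to 27.5% of plus-strand and 2.58% of minus-strand peaks. This gap was wider within 1 exon, at 28.1% (25.9 to 30.5) against 0.956% (0.559 to 1.63), than among peaks that cross an intron, at 25.2% (21.2 to 29.7) against 7.82% (5.62 to 10.8). Of the 46 stop codon peaks on the minus strand, 33 crossed an intron.

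The most significant peaks lay almost all on the plus strand. Of 77 peaks with a log10 adjusted p under -20, 74 were on the plus strand (96.1%, 89.2 to 98.7) and 56 were labelled stop codon (72.7%). From -20 to -15 the plus strand had 90 of 100 peaks, and from -15 to -10 63.1% of 293. In the 5 weaker classes the plus share stayed between 43.3% and 48.4%. The same order held among peaks without the stop codon label, where the plus strand had 18 of 21 peaks under -20 (85.7%, 65.4 to 95.02) but 39.3% of 412 peaks from -10 to -7.5. Median folds of the 8 classes lay between 1.81 and 1.96, and the Spearman correlation of fold with log10 adjusted p was -0.0177 over all peaks. Fold and significance thus ranked different peaks.

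**Figure D2:**
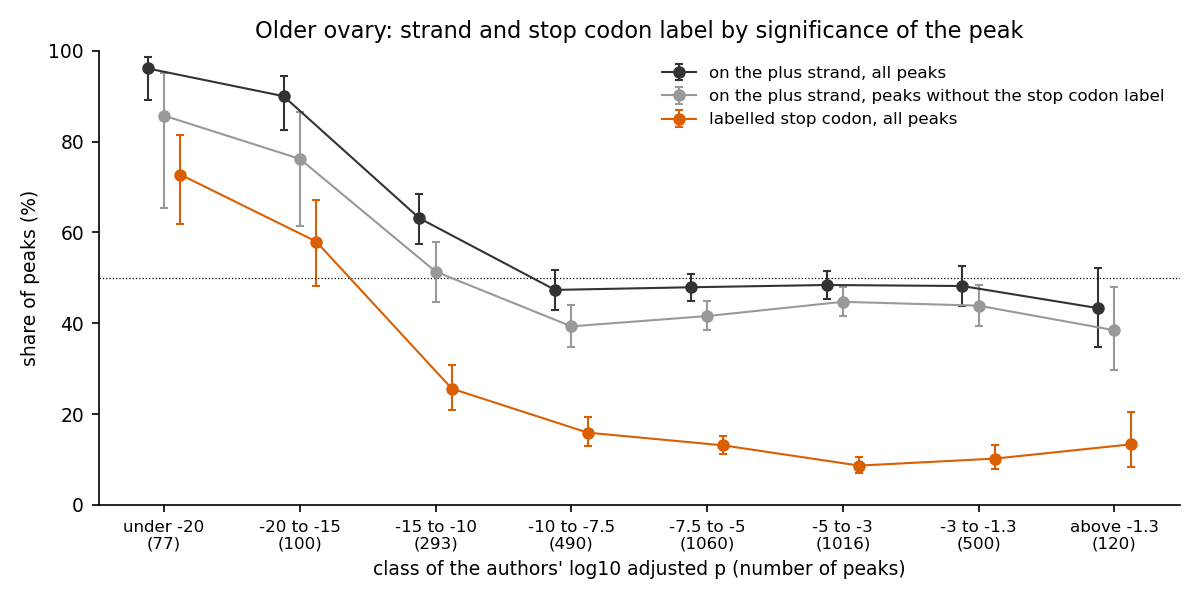
Share of peaks (vertical axis, percent) on the plus strand, on the plus strand among peaks without the stop codon label, and labelled stop codon, in 8 classes of the authors' log10 adjusted p (horizontal axis, most significant at the left, number of peaks in parentheses); bars are Wilson 95% intervals. The plus share is 96.1% in the most significant class and under 50% in the 5 weakest.

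Position at the gene end moved with this pattern. Of the 1862 plus-strand peaks that could be placed in the gene table, 331 (17.8%) ended exactly at the last base of the gene, and 330 of these carried the stop codon label. On the minus strand 0 of 1770 did so, where 3 counts, used as the limit for a count of 0, would be 0.169%. Stop codons lie upstream of the 3' UTR, and the label is therefore taken as the authors' word and not as a position. Among plus-strand peaks with a log10 adjusted p of -15 or lower, 87 of 164 ended at the last base (53.0%, 45.4 to 60.5), against 14.4% of the other plus-strand peaks. Plus-strand peaks ending elsewhere still reached -15 or lower in 5.03% of cases, against 0.734% of minus-strand peaks. Their part in the strand difference beyond these counts was not tested. The gene-end comparison was chosen after the values were seen.

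Only 13 minus-strand peaks reached a log10 adjusted p of -15 or lower. The lowest were those of the zinc finger gene VEZF1 (-26.2, start codon, fold 1.77), of NUDT2, a hydrolase of diadenosine tetraphosphate (-25.1, 3' UTR, 1.85), and of GATAD2B, a subunit of a histone deacetylase complex (-20.7, 3' UTR, 2.40). They were followed by WDR38 (-19.4) and the potassium channel gene KCNMA1 (-18.8). These genes were named after their values were seen.

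Genes with only a LOC number were left out of the ranked sets that follow. The 15 highest folds of named genes at an adjusted p of at most 0.05, with ties ordered by adjusted p, came from genes of varied function, 9 of them on the plus strand. N4BP3, which encodes a NEDD4-binding protein, led with 8.50 in a 3' UTR peak (chr5:36924303-36924502, adjusted p 6.61e-06). WDR62, a scaffold protein of the centrosome and spindle pole, had 8.00 in a stop codon peak (chr14:46071699-46071849, adjusted p 6.31e-24). LRRC4C followed with 6.67 (chr15:69526208-69526407), and the zinc finger gene ZNF142 with 6.37 in a 3' UTR peak (chr2:220611581-220611879). Of these 4 leading genes, each had a single peak. Next came the catenin gene CTNND2 (5.75), the octamer-binding factor gene POU2F2 (5.71) and WDR48 (5.67), which encodes a cofactor of deubiquitinases. PSME3IP1 (5.40), C12H1orf159 (5.37) and C15H11orf49 (5.33, adjusted p 0.0158) stood close together. The remaining 5 were ACSL5 (5.12), an enzyme that activates long-chain fatty acids, the histone methyltransferase gene SUV39H2 (5.12), the glutathione transferase gene GSTA1 (5.09), the chromatin remodeller gene ATRX (5.00) and the bicarbonate transporter gene SLC4A7 (5.00). TNIK, CREB5, BCL2A1, SH3KBP1 and SLU7 had the same fold of 5.00 with higher adjusted p-values. By label the 15 held 6 peaks of 3' UTR, 4 of stop codon, 4 of Exon and 1 of 5' UTR. LOC105607199, left out, had a stop codon peak of 5.40 on the plus strand.

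The 15 lowest adjusted p-values of named genes came from other genes, and no named gene was in both leading sets. With sets of 15 out of 2847 named genes, no overlap is likely even for unrelated rankings, so it is not read as a result. MPDU1, needed for the use of dolichol-linked mannose in glycosylation, had a log10 adjusted p of -52 at a fold of 1.62. DDX20, a helicase of the SMN complex, had -45.6 at 1.84, and TM2D3 had -41 at 2.28. RAB23, a small GTPase that restrains hedgehog signalling, had -38.2 at 2.78, the highest fold of the 15. PTGES, the enzyme that makes prostaglandin E, had -36.7 at 1.75, and SCARB1, the receptor that takes up cholesterol from high-density lipoprotein, had -33.7 at 1.55. Both act in the ovary, in ovulation and in steroid synthesis. The others were SUPV3L1, PCNX3, SIGIRR, SLC7A7, BOC, TMEM52, PIK3CB, CNPY3 and TMEM248, with folds from 1.5 for TMEM248 to 2.31 for BOC. All 15 lay on the plus strand and 12 were labelled stop codon, with 2 labelled 3' UTR (SCARB1, TMEM248) and 1 Exon (DDX20). LOC101117272, left out, would stand behind MPDU1 with a log10 adjusted p of -49.7 in a plus-strand stop codon peak with a fold of 1.79.

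Peaks strong by both measures occurred at close to the shares over all peaks. A fold of at least 3 with a log10 adjusted p of -10 or lower was reached by 34 peaks in 33 genes. They make up 14.3% of the 238 peaks with that fold, where 12.9% of all peaks had that adjusted p. Of the 470 peaks with that adjusted p they make up 7.23%, where 6.51% of all peaks had that fold. This pair of limits was chosen after the values were seen. WDR62, ZNF142, PSME3IP1, C12H1orf159 and ACSL5 were among them. Further members were the histone methyltransferase gene KMT2A (3.60), the tight junction gene CLDN3 (3.71), the serine racemase gene SRR (4.00), the homeobox genes HOXA3 (3.40) and ZFHX4 (3.67), the proteasome activator gene PSME4 (3.17) and the nuclear pore gene NUP153 (3.09). Of the 34 peaks 27 were on the plus strand.

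Most genes had a single peak. These numbered 2621 of 3086 (84.9%, 83.6 to 86.2), while 380 genes had 2 peaks (12.3%), 68 had 3 (2.20%), 14 had 4 and 3 had 5. The 465 genes with more than 1 peak held 1035 peaks (28.3%). Having several peaks did not come with stronger ones: the median fold was 1.89 in these genes and 1.88 in genes with 1 peak.

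The 3 genes with 5 peaks had different layouts. MYH9, which encodes a heavy chain of non-muscle myosin, had 4 Exon peaks that each crossed an intron and 1 peak in the 3' UTR, and from 5' to 3' the folds were 1.65, 1.72, 1.92, 1.72 and 2.00 over 14528 bases. ZBTB7A, a transcription factor gene, had 4 peaks labelled 3' UTR with folds of 4.67, 2.54, 3.58 and 3.25, and the last peak, labelled stop codon, had 1.58, over 4643 bases. XG, a blood group gene, had folds between 1.5 and 1.89, and 1 of its peaks had an adjusted p of 0.0661. ZBTB7A was thus the one of the 3 with folds above 2.

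Genes with 4 peaks ranged from those peaked along exons to those peaked along the 3' UTR. In the translation initiation gene EIF3A all 4 peaks were labelled Exon and crossed an intron, with folds from 1.65 to 2.14, and all 4 had an adjusted p above 0.05. RDX, whose product radixin links actin to the cell membrane, had 3 Exon peaks (2.00, 2.58 and 3.00) and 1 peak in the 3' UTR (2.33). The splicing regulator gene NSRP1 had 3 Exon peaks, the first with 4.40 (chr11:21207873-21208980) and the next 2 with 1.5 and 1.60, and a 3' UTR peak with 1.65. In contrast, the cohesin gene SMC1A, the glycogenin gene GYG2 and TMEM167A had all 4 peaks labelled 3' UTR, with folds of 1.58 to 2.18, 1.73 to 3.07 and 1.56 to 2.30. PPP1R12A, a myosin phosphatase subunit gene, METTL16, ANKRD12, LZIC and SYNE2, a gene of the nuclear envelope, had both kinds, with the highest fold of these in the third peak of LZIC (4.80).

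IGF2 and TPM1 had peaks at both transcript ends. In IGF2, an insulin-like growth factor gene, the 5' UTR peak had 2.06, the stop codon peak 13992 bases downstream had 1.67, and the 2 peaks in the 3' UTR had 1.67 and 1.76. The tropomyosin gene TPM1 had a 5' UTR peak (1.75), a start codon peak (1.89) and 2 peaks in the 3' UTR (1.57 and 1.51). LOC101109032, a gene without a symbol, had 3 peaks labelled 5' UTR, the second with 4.80. Among named genes with 3 peaks the summed fold was highest in FBXW7, a subunit of a ubiquitin ligase (4.20, 3.22 and 2.20, all 3' UTR). KPNA4, an importin gene, followed (5.00 with an adjusted p of 0.104, then 2.55 and 1.55), ahead of GSTA1 (1.80, 1.60 and 5.09), the protease gene TLL2 (4.20, 1.55 and 2.06) and the tubulin chaperone gene TBCC (1.81, 4.11 and 1.72). In each of these 5 genes 1 peak stood well above the weakest.

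**Figure D3:**
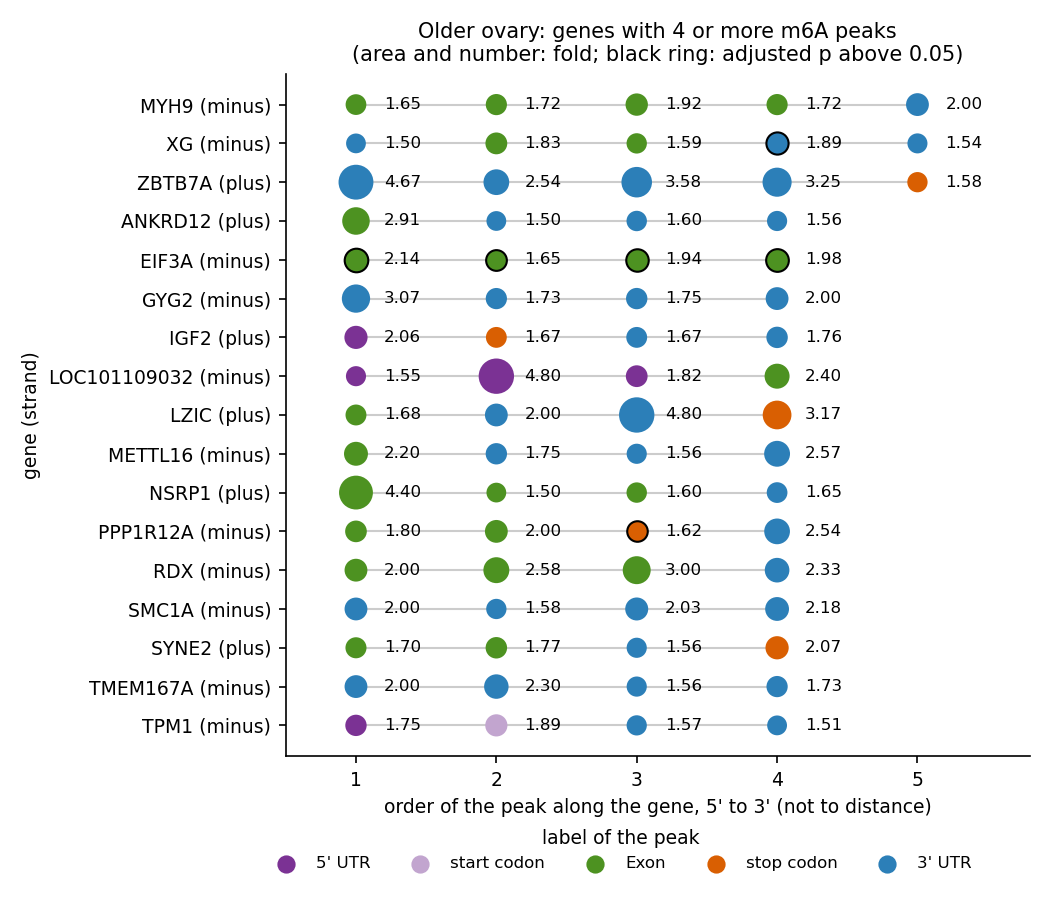
The 17 genes with 4 or 5 peaks (rows, with strand), their peaks in order from 5' to 3' (horizontal axis, order only); colour gives the annotation label, area and number the fold, and a black ring an adjusted p above 0.05. ZBTB7A holds 4 folds between 2.54 and 4.67, and all 4 peaks of EIF3A are ringed.

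Neighbouring peaks of a gene were close and often shared a p-value. Between 570 pairs of neighbours the median gap was 796 bases (middle 50% 246 to 2912). The longest, 650179 bases, separated the 5' UTR and 3' UTR peaks of MAGI1, a scaffold gene of cell junctions, and the peaks of TOB2 overlapped. Apart from TOB2, the smallest gaps were of 96 to 99 bases and occurred in 71 pairs (12.5%). Both peaks carried the same p-value in 91 of 112 pairs up to 150 bases apart (81.3%), in 40.3% of pairs from 150 to 1000 bases and in 16.0% of pairs further apart. In 147 of the 465 genes with several peaks (31.6%) every peak had the same p-value, as in SYNE2, so p-values within a gene cannot be counted as separate.

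Upstream and downstream peaks had the higher fold about equally often. The upstream one led in 273 pairs and the downstream peak in 291, with 6 ties, and the median ratio of the higher to the lower was 1.20. The most frequent orders of labels were 3' UTR followed by 3' UTR (244 pairs), Exon followed by 3' UTR (113) and 3' UTR followed by stop codon (70). Of these 70 pairs 65 were on the plus strand, and the reverse order was found in 15.

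Peaks were set against the genes of each chromosome to see how evenly the list covers the genome. The RefSeq gene table holds 21300 protein-coding genes, and 14.4% of them had a peak. Of the 16417 with a symbol 17.6% did. The X chromosome had the lowest share, 83 of 937 genes (8.86%, 7.20 to 10.8), and chromosome 24 the lowest among autosomes (12.7%). Chromosome 16 had the highest, 60 of 313 (19.2%, 15.2 to 23.9), followed by chromosome 7 (17.2%). Without genes that have only a LOC number, X stayed lowest at 11.7% (9.40 to 14.6) and chromosome 15 became highest at 22.3%.

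Among named genes the peaks of highest fold on X were those of ATRX and of the adaptor gene SH3KBP1 (5.00 each, adjusted p 0.00832 for SH3KBP1), followed by SYAP1 (3.41). X also had the most peaks per gene, 1.30, against 1.12 on chromosome 8. Without XG and GYG2, which hold 9 of its 109 peaks, the X value was 1.22. On chromosome 24 the leading named genes were the growth factor gene PDGFA (3.82), CLDN3 (3.71) and CPPED1 (2.91). On chromosome 16 they were CTNND2, the deubiquitinase gene OTULIN (4.87) and the endothelial gene ESM1 (2.64), and on chromosome 7 the recombination gene RAD51B (4.00), ICE2 (3.88) and RAB15 (3.67). Strength was even across the genome, with median folds from 1.83 to 2.00 on 27 chromosomes. The share of peaks on the plus strand ran from 36.1% of 72 peaks on chromosome 22 to 66.7% of 108 peaks on chromosome 19. These are the extremes of 27 chromosomes, and the strand of all genes on each chromosome was not set beside them.

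**Figure D4:**
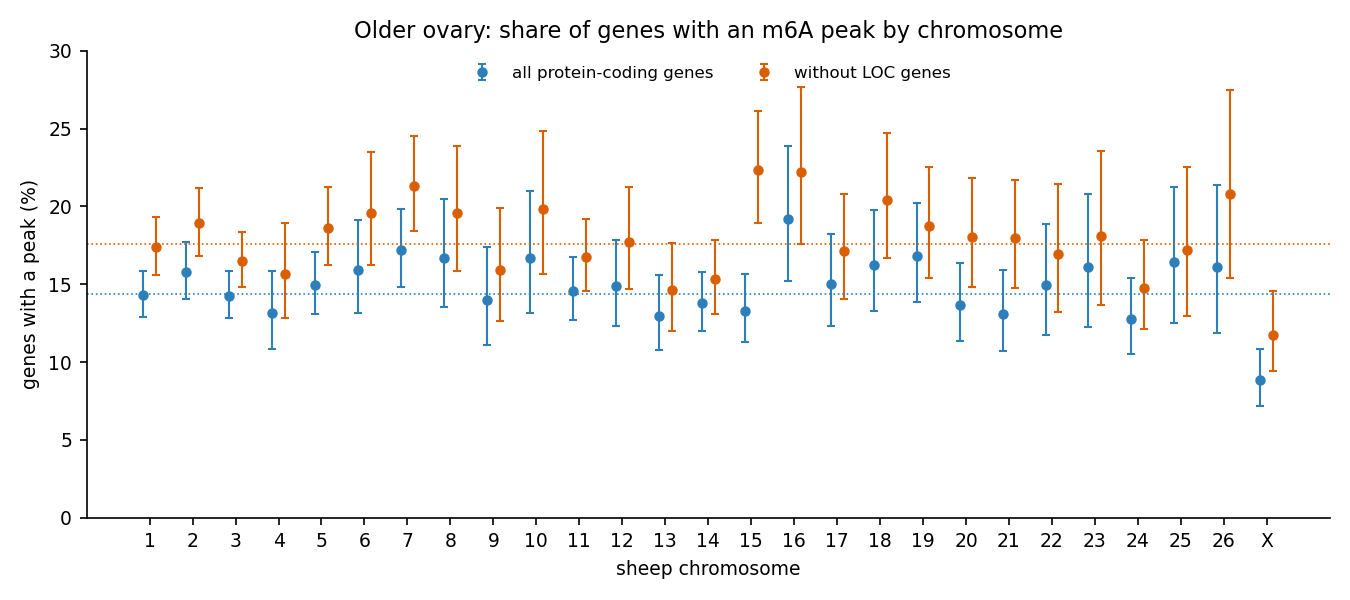
Share of protein-coding genes with a peak (vertical axis, percent) on each sheep chromosome (horizontal axis), for all genes and without LOC genes; bars are Wilson 95% intervals and dotted lines the shares over all genes, 14.4% and 17.6%. X has the lowest share in both sets, 8.86% and 11.7%.

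Some peaks of different genes covered the same stretch. There were 52 such pairs involving 91 genes, 45 of them on opposite strands. In the 31 opposite pairs where neither peak crosses an intron the median ratio of the 2 folds was 1.10 and the highest 1.54. SUV39H2 (5.12), in the leading set above, shared its 200 bases with a 3' UTR peak of the DNA end-processing gene DCLRE1C (4.08). THBS1 (2.71) overlapped FSIP1 (2.44), the repair gene XPA (1.69 and 2.00) overlapped NCBP1 (1.62 and 1.80), and the beta-secretase gene BACE1 overlapped RNF214 at 3 places. Libraries were made with a stranded kit, but whether the counting used strand is not stated, so reads of the partners cannot be told apart here.

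Pathway terms are deposited with the genes of the list. A term was given for 1320 genes (42.8%). The strongest fold per gene had a median of 1.93 (1.91 to 1.95) over all genes, 1.89 in genes with a term and 1.96 in those without. Since terms are known only for genes with a peak, they can describe strength but not how often a pathway is methylated. Of all genes 1430 (46.3%) had a strongest fold of at least 2.

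The terms with most genes were broad, and their leading genes are given here without LOC genes. Pathways in cancer had 112 genes with a median strongest fold of 1.83, led by GSTA1 (5.09), PDGFA (3.82) and the GTPase gene RALA (3.08). PI3K-Akt signaling had 76 genes with a median of 1.82, led by the transcription factor gene CREB5 (5.00), PDGFA and the phosphatase subunit gene PPP2R5E (3.25). These terms share 43 genes. The MAPK, Rap1 and Ras terms had 57, 57 and 56 genes with medians of 1.87, 1.87 and 1.88. The junction gene AFDN (4.50) stood high in the last 2, the phosphatase gene PTPN11 (4.60) led the Ras term, and MRAS (2.95) was in all 3.

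The remaining terms of this set are named for diseases. Herpes simplex virus 1 infection had 98 genes with a median of 2.00, led by POU2F2 (5.71), PTPN11 (4.60) and ZNF471 (4.00). Of these 98 genes 61 (62.2%) are described as zinc finger proteins, with a median of 2.11 against 2.00 in the other 37. The term therefore holds mainly zinc finger genes. Human papillomavirus infection had 69 genes (CREB5, PPP2R5E, and TSC1 with 3.14, an inhibitor of mTOR) with a median of 1.83. The neurodegeneration and Alzheimer disease terms had 63 and 61 genes, of which 44 are shared, and were led by the tubulin gene TUBA1C (3.69, 5' UTR), ATXN3 (3.67, in the former) and the kinase gene CSNK2A2 (3.50, adjusted p 0.0437). Salmonella infection had 56 genes, led by KPNA4, TUBA1C and the tubulin gene TUBB2B (3.14).

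Among 208 terms with at least 10 genes the medians lay between 1.67 and 2.41. PPAR signaling was highest with 13 genes and 2.41 (1.78 to 3.33), and 9 of its genes had a fold of at least 2 (46.3% over all genes). Several of its leading members act on fatty acids: the activating enzymes ACSL5 (5.12) and ACSL4 (3.11), the desaturase FADS2 (3.71) and the receptor PPARA (3.33). Alcoholism followed with 20 genes and 2.34 (CREB5, the histone deacetylase gene HDAC9 with 2.67, and the vesicular transporter gene SLC18A2 with 2.60). Acute myeloid leukemia had 17 genes and 2.33 (BCL2A1 with 5.00 and the kinase gene PIK3CA with 2.75). Lowest were Th17 cell differentiation with 20 genes and 1.67, and Dilated cardiomyopathy with 15 and Th1 and Th2 cell differentiation with 13, each at 1.68. The T cell terms share 11 genes and were led by NFKBIE (3.04) and MAPK8 (2.45), and MTOR (2.32) was in the former. The cardiomyopathy term was led by the integrin gene ITGA4 (2.31), IGF1 (2.25) and TPM1 (1.89). The PPAR interval includes the median of 1.93 over all genes. The intervals of the PPAR and Th17 medians did not overlap. These terms were picked as the ends of a ranking of 208, so this cannot show a difference between them.

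**Figure D5:**
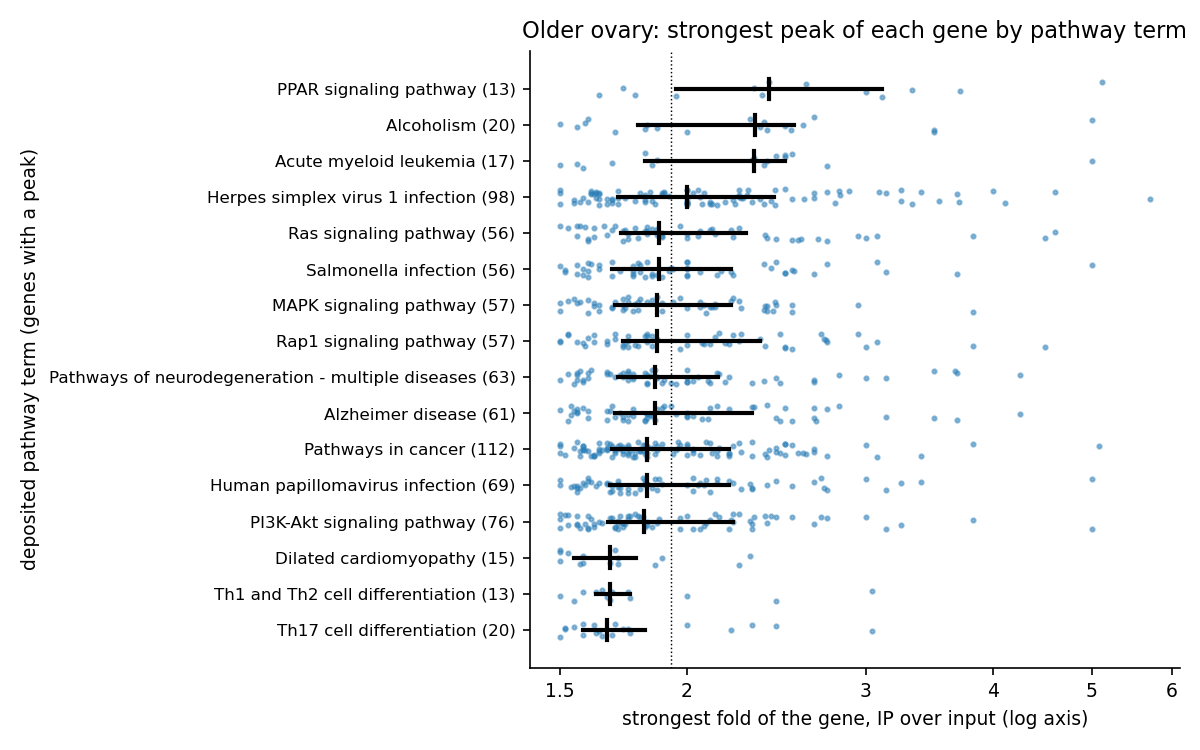
Strongest fold of each gene (horizontal log axis) in 16 deposited pathway terms (vertical axis, number of genes in parentheses): the 10 with most genes, the 3 with the highest and the 3 with the lowest medians; points are genes, black bars the median and the middle 50%, and the dotted line the median of 1.93 over all genes. PPAR signaling has a median of 2.41 and the 3 lowest terms stand at 1.67 and 1.68.

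Gene lists drawn up by function show which parts of ovarian biology the list reaches, and their shares are set against 17.6% of genes with a symbol. The lists were drawn up with earlier results of these data known. The background counts all genes with a symbol, whether or not they are expressed in ovary. A share above it is therefore not independent support for a list. Of 12 m6A writer genes 4 had a peak (33.3%, 13.8 to 60.9). METTL14, the partner of the catalytic subunit, had a 3' UTR peak of 2.07 (chr6:7020293-7020692), and CBLL1, a ubiquitin ligase of the writer complex, had a stop codon peak of 2.66 with an adjusted p of 3.16e-17. ZC3H13, of the same complex, had an Exon peak of 2.71 with an adjusted p of 0.545. METTL16, a separate methyltransferase that acts on U6 RNA, had 4 peaks with folds from 1.56 to 2.57. No peak was listed for the 2 erasers (interval 0 to 65.8%) or for any of 14 readers (0 to 21.5%). The intervals of writers, erasers and readers all include the background, so no contrast between them is read.

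Hormone and growth factor genes were looked at in separate lists. The interval of the first includes the background share, so the lists are not read as a contrast. Of 24 genes for gonadotropin and steroid hormone receptors and cAMP signalling 2 had a peak (8.33%, 2.32 to 25.8): FSHR, the receptor of follicle-stimulating hormone (2.54, stop codon, chr3:75557521-75557720), and the cAMP-responsive modulator CREM (2.00). In the insulin-like growth factor axis 8 of 14 did (57.1%, 32.6 to 78.6). These were both ligands, IGF1 (1.64, 2.00 and 2.25) and IGF2, the receptors IGF1R (1.97) and INSR (1.73), the docking proteins IRS1 (1.86 and 2.33) and IRS2 (1.58 and 1.95), and the binding proteins IGFBP3 (1.69) and IGFBP5 (1.53). The interval of the axis lies above the background, though this is 1 of 27 lists looked at, drawn up with earlier results known. Folds in the axis were ordinary, with a median strongest fold of 1.96 against 1.93 over all genes.

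Steroid synthesis and cholesterol supply had 9 of 27 genes (33.3%, 18.6 to 52.2). Their median strongest fold was 1.63 against 1.93 over all genes, and without an interval it is not read as lower. The strongest folds of these 9 genes ran from 1.5 to 2.47. The highest belonged to INSIG1 (2.47), which restrains cholesterol synthesis, to the esterifying enzyme SOAT1 (2.14 and 2.19), to the reductase SRD5A1 (1.85) and to the nuclear receptor NR5A2 (1.64). The match of POR (1.58) was through a LOC gene and is uncertain. Without POR the count was 8 of 27 (29.6%, 15.9 to 48.5), an interval that includes the background of 17.6%. This is also 1 of 27 lists looked at. A gene the file names CYP17, with the deposited symbol CYP17A1, had a 3' UTR peak of 2.22 with an adjusted p of 0.0132. The gene table lists it apart from the gene named CYP17A1, so it was not counted among the 9.

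Of TGF-beta, BMP, activin and inhibin genes 9 of 34 had a peak (26.5%, 14.6 to 43.1). Without an interval, their median strongest fold of 1.64 is not read as low. By role they were the ligands BMP2 (2.12), INHBB (1.67 and 1.85) and TGFB3 (1.57), the activin receptor ACVR2B (2.18), the mediators SMAD2, SMAD3 and SMAD4 (strongest 1.62, 1.64 and 1.58), the ubiquitin ligase SMURF1 (2.00) and FST at the lower edge of the list. The oocyte ligands GDF9 and BMP15 and the granulosa hormone AMH had no listed peak, like most genes with a symbol. In the WNT pathway 7 of 30 had one, led by the receptor FZD4 (2.67 and 2.29), the nuclear factor LEF1 (2.50, 5' UTR, adjusted p 0.0832), and the ligands WNT2B (2.03) and WNT2 (1.89). Hippo genes numbered 4 of 21: the kinases LATS2 (2.74) and STK3 (2.06), the transcription factor TEAD1 (2.50) and AMOTL1 (2.25). Each was above 2, a fold that 46.3% of all genes with a peak reach or pass. With 4 genes this is not read as a trait of the list. NOTCH genes numbered 4 of 19, with the receptors NOTCH4 (2.14) and NOTCH2 (1.68), the target HES1 (1.75) and the ligand JAG2 (1.67). The intervals of these 4 lists all include the background.

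Histone and DNA modifiers had a peak in 16 of 51 (31.4%, 20.3 to 45.03), led by SUV39H2, KMT2A, the acetyltransferase gene CREBBP (2.60 and 3.40, which the file names by a LOC number) and HDAC9. DNA repair genes had one in 10 of 32 (31.3%, 18.0 to 48.6), led by FANCA (2.27, adjusted p 0.0741), XPA, the histone gene H2AX (1.82, through a LOC gene) and NBN (1.81). The interval of the modifiers lies above 17.6%, as 1 of 27 lists looked at, drawn up with earlier results known. That of DNA repair includes 17.6% without the LOC match, at 9 of 32 (28.1%, 15.6 to 45.4). For cell cycle and senescence the count was 6 of 31, led by MKI67 (1.67 and 3.71), a proliferation marker, the phosphatase CDC25A (2.92), MCM6 (2.38) and the inhibitor CDKN1B (2.32). For apoptosis it was 6 of 22, led by the caspase CASP9 (2.67 and 2.17), FADD (2.03 and 2.14), BIRC3 (2.00) and BIRC2 (1.64).

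Extracellular matrix genes had a peak in 9 of 35, led by THBS1, the collagen genes COL12A1 (2.23) and COL1A1 (2.09), and the protease inhibitor gene TIMP2 (2.22 and 1.51). Abundant housekeeping genes had a peak in 1 of 19, YWHAZ (1.83 and 1.5), with 0.935 to 24.6 as the interval in percent. Cytosolic ribosomal proteins had 13 of 75, but 10 of these were matched through LOC genes, which may be copies and are uncertain. By name 3 had a peak, RPL21 (1.73), RPL24 (1.53) and RPL28 (1.52), all labelled Exon and on the minus strand. The best of the uncertain matches were RPL23A (2.88), RPL4 (2.45) and RPS3A (2.40).

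Markers of ovarian cell types were found in the list of this ovarian tissue, although a peak reports methylated RNA and not the share of a cell type. Oocyte genes had a peak in 5 of 19: the transcription factor NOBOX (2.85, adjusted p 0.0245), NLRP14 (2.75), PADI6 (2.06), NLRP5 (2.00) and NPM2 (1.58). Granulosa genes had one in 3 of 11 (FSHR, INHBB and NR5A2) and theca and luteal genes in 2 of 10, FDX1 (1.63 and 1.55) and SCARB1. Endothelial genes had the highest marker share, 5 of 11 (45.5%, 21.3 to 72.0), with the growth factor receptor KDR (2.13), PECAM1 (1.78), VWF (1.71), ERG (1.67) and CLDN5 (1.54). This is 1 of 27 lists looked at, drawn up with earlier results known. The intervals of the other marker lists all include the background of 17.6%. Stromal genes had 3 of 11 (PDGFRA with 2.22, COL1A1, and PDGFRL with 1.84). Smooth muscle and pericyte genes had 2 of 10 (PDGFRB with 1.72 and 2.11, CSPG4 with 1.83 and 1.60). The remaining marker lists held few or no genes with a peak: AIF1 (1.71) and CD86 (2.39) of 9 macrophage genes, CD2 (1.53) of 6 T and NK cell genes, KRT18 (2.05) and KRT19 (1.60) of 7 surface epithelium genes, and 0 of 4 erythroid genes. Among the marker genes without a listed peak were FOXL2, LHCGR, STAR, CYP11A1, DDX4 and ZP3. As only 17.6% of genes with a symbol had a peak, such an absence is the usual case and not read as a result.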

How the data were processed

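One peak list of ovarian tissue at 5 to 6 years was analysed, from an m6A immunoprecipitate and its input, both numbered replicate 2 in the labels. Libraries came from a stranded total RNA kit, per the labels' protocols. The submitters' processing notes name ChIPseeker and DESeq2 without a role. The aligner, peak caller, genome build and sequencing depth are not given in the sources used. Per the file headers, the authors give each peak a fold enrichment (a linear ratio), a raw and an adjusted p-value, and log10 of both. The deposited width, in bases, is a score of exon length and is shorter than the genomic span where a peak crosses an intron.

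Rows with the same gene, chromosome, start, end and strand were counted as 1 peak. Peaks were otherwise counted and ranked as deposited, with starts shifted by 1 base to count from 1. Shares have Wilson 95% intervals and medians binomial ones, whose coverage was checked on simulated data. The input library itself was not used here, so transcript abundance is unknown. Genes were matched by identifier to a RefSeq table of ARS-UI_Ramb_v3.0 (99.5% of peaks) for names, chromosome numbers and counts of coding genes. Its gene ends were used for 1 comparison because 331 peaks ended on them to the base, against 1 base away in 4, and none of its coordinates are printed.

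Members and the 27 gene lists were chosen with earlier results of these data known. Named genes, LOC genes left out of ranks, are the 15 highest folds (adjusted p of at most 0.05), the 15 lowest adjusted p, genes with 4 or more peaks, leading genes per label, term, chromosome and list, and values at the limits. A gene that this rule selects is not reported here. Alternatives were a fold of at least 2, an adjusted p of at most 0.01, peaks within 1 exon, the strongest peak per gene, leaving out LOC genes and, chosen after seeing the data, leaving out genes whose peak overlaps another gene's. Tables were handled with pandas 2.3.3 and numpy 2.4.6 in Python 3.11.15, intervals came from scipy 1.17.1, and plots from matplotlib 3.10.9.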

Additional observations from a re-analysis of the deposited data

How the results depend on the processing

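No paired analysis was possible because the list rests on 1 immunoprecipitate and 1 input, and no result comes from a test. Under the alternatives 31 of the 43 values for the 7 main quantities stayed within the interval of the value reported. With a fold of at least 2 the share of genes with a single peak was 91.4%, the median fold 2.33, the stop codon share on the minus strand 1.90% and the share of coding genes with a peak 6.66%. The median rises and the share of coding genes falls by construction of that limit, and the cause of the other shifts was not tested. Within 1 exon these were 87.3% for single peaks, 0.956% for the minus-strand stop codon share and 11.5% of coding genes, and the 3' UTR share was 74.97%. With the strongest peak per gene the median fold was 1.93 and the plus-strand stop codon share 29.97%. Coding genes with a peak were 13.5% at an adjusted p of at most 0.01 and 17.6% without LOC genes. Among the 27 gene lists, ribosomal proteins alone left their interval without LOC matches, at 4.00% against 17.3%. Depth is unknown, so how many weaker peaks lie under the authors' limits cannot be given.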

Other observations

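Deposited pathway terms of ovarian processes, chosen after the terms were seen, held genes that no list above named. Progesterone-mediated oocyte maturation had 20 genes with a median strongest fold of 1.95, and Oocyte meiosis 25 genes with 1.86. They included CDC27, a subunit of the anaphase-promoting complex (2.55), and the kinase gene RPS6KA3 (2.54), while the calcium channel gene ITPR2 (2.20) was in the latter. GnRH signaling had 18 genes with a median of 1.77, led by the G protein gene GNAQ (2.47). Ovarian steroidogenesis had 12 genes with a median of 1.79, and Steroid biosynthesis 3, among them the squalene synthase gene FDFT1 (2.49, adjusted p 0.0178).

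Further terms, also chosen after they were seen, lay on both sides of the median over all genes. Spliceosome had 24 genes with a median of 1.97, with SLU7 (5.00, adjusted p 0.0200), RBM25 (3.36) and SNRPB2 (2.60). The strongest peaks of RBM25 and SNRPB2 were labelled Exon. The mTOR term had 31 genes with a median of 1.97, led by CAB39 (4.25), whose product activates the kinase LKB1. TGF-beta signaling had 21 genes with 2.00, including the transcription factor gene SP1 (3.00) and ZFYVE16 (2.64). Oxidative phosphorylation had 9 genes with 1.82, including COX15 (3.29) and NDUFA5 (2.82). ECM-receptor interaction had 21 genes with 1.75, including the syndecan gene SDC1 (2.38) and CD44 (2.17). The median over all genes was 1.93 (1.91 to 1.95), and none of these terms was tested.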
